A study of Mus musculus with 9 samples.

Results

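Cxcl9, Cxcl10 and Cxcl11 encode chemokines that share a single receptor, CXCR3, and were taken as the probes that the platform's annotation assigns to these symbols. Each ligand had 1 probe, so 3 probes of 10012 and 3 genes of 8841 named genes are described here. All 3 probes were among the 5710 left for testing after a filter on low values. They were kept because the filter applies only where the floor of low signals is known, which does not show a strong signal. RNA of mouse lung tissue had been measured on 9 arrays in 3 groups of 3. The controls carry no treatment in their labels, and the sources used here do not say how they were handled (anaesthesia, intubation, vehicle). The LPS group had received E. coli lipopolysaccharide, the endotoxin of the bacterial outer membrane, by injection at 3 mg/kg. The overventilation group had been ventilated mechanically for 3 h at a pressure of 25 cmH2O, which models the lung injury that a ventilator can cause. The sources used here give no strain, age or sex, no route or time of the injection, and no statement that each array had its own animal. Lungs counted below are arrays of lung RNA, which may not be separate animals. P-values therefore measure only how far these samples spread, and that spread may be technical.

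CXCR3 is a G protein-coupled receptor of activated T cells and natural killer cells, and its ligands recruit these cells into inflamed tissue. The 3 ligands are known as interferon-induced chemokines. Cxcl9 depends most strongly on interferon gamma, while Cxcl10 also responds to type I interferons and to NF-kB signalling, as it does after endotoxin. In lung, epithelial cells, endothelial cells, fibroblasts and macrophages can make them. Cxcl11 has the highest affinity for CXCR3 of the 3 and also binds the scavenging receptor ACKR3. The C57BL/6 reference strain carries a disrupted Cxcl11 reading frame, and the RefSeq gene table (GRCm38.p6) lists Cxcl11 as a transcribed pseudogene and the other two as protein-coding. The strain of these mice is not given, so whether their Cxcl11 RNA encodes a protein is unknown. The values of all 3 ligands measure RNA only. In that table the 3 genes lie close together on chromosome 5, Cxcl10 next to Cxcl11, with Art3 between Cxcl9 and Cxcl10.

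The promoters of Cxcl9 and Cxcl10 are shown because these neighbouring genes share a receptor and an inducer. Pearson's r of their values was 0.48 over all 9 arrays and 0.84 without overventilation array 3. The RefSeq promoter table (GRCm38.p6) held Cxcl9 and Cxcl10, and Cxcl11 was not among its entries. The sequences are the 250 bases before the annotated start, read 5′ to 3′ along the gene, which is on the minus strand for both. They lie at chr5:92328080-92328329 for Cxcl9 and at chr5:92348890-92349139 for Cxcl10. Capitals mark matches to motifs searched on both strands.
Cxcl9: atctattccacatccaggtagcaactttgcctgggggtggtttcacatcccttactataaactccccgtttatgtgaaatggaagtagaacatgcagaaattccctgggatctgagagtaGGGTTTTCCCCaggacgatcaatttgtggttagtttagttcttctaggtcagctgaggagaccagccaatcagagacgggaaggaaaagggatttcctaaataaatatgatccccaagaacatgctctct
Cxcl10: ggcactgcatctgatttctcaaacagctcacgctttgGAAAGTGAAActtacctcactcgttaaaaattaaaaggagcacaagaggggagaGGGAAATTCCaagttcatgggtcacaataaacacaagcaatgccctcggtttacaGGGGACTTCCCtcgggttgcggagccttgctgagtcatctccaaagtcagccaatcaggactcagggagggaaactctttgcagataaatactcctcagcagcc

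The interferon-stimulated response element was searched as GAAA repeated with any 2 bases between, the interferon gamma-activated site as TTCNNNGAA, and an NF-kB-like site as GGG and CC with any 5 bases between. Cxcl10 held 1 match to the response element, GAAAGTGAAA, from 213 to 204 bases before its start. A match to this motif was present in 2.98% of all 32536 distinct promoter windows of this length. Cxcl10 also held 3 NF-kB-like matches, 2 of which overlap by all but 1 base in the run GGGGACTTCCC (104 to 94 bases before the start). The third, GGGAAATTCC, lies at 159 to 150 bases before the start. Cxcl9 held 2 NF-kB-like matches on opposite strands in the run GGGTTTTCCCC (130 to 120 bases before its start). This loose motif was present in 46.0% of all windows. Neither promoter held a match to the interferon gamma-activated site (7.04% of all windows), which says only that these letters are not in this window.

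The deposited values are ratios to the mean of the 3 controls and are given here on the log2 scale, so 0 is the control mean and a step of 1 is a doubling. They carry no level of one gene against another. Gene names rest on the platform's annotation alone, and 66 genes with 2 tested probes had a median r of -0.034 between them, so a probe may be assigned to the wrong gene and every named value is that of a probe. Fewer cells of a type and less RNA per cell cannot be told apart in whole lung tissue. Before the ratios were formed, low signals had been set to a floor that differs between arrays. At 4690 probes 2 or more arrays shared that floor. No ligand probe was among these, so the distance of their lowest arrays from the floor is unknown. The lowest array of each ligand, measured above each array's own floor, was control array 3, and it may itself lie at the floor. Each other array lay above its floor by at least the amount given below where it matters. The share of probes at the floor was 42.4% on overventilation array 3 and ran from 27.8% to 39.4% on the others. At 110 probes overventilation array 3 exceeded the rest by more than 1.5, and no other array did so at more than 6 probes. Cxcl10 was 1 of these 110, and Cxcl9 and Cxcl11 were not. All 6 alveolar type II cell markers with a probe were tested. The endothelial marker Cdh5 was at the floor on all 9 arrays although 5 other endothelial markers were tested, so a probe at the floor does not show that its cell type was missing.

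Cxcl10 had the highest mean change of all 5710 tested probes after overventilation, and its mean was also higher after LPS. Control arrays 1 to 3 stood at -0.84, 1.08 and -0.23. After LPS the values were 0.18, 3.06 and 1.44, and after overventilation 2.41, 3.01 and 5.23. All 3 overventilated lungs lay above all 3 controls, by at least 1.33. LPS arrays 2 and 3 lay above every control and LPS array 1 lay among them. The LPS and overventilated lungs overlapped, since LPS array 2 exceeded overventilation arrays 1 and 2.

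The mean of Cxcl10 was 3.55 ± 1.48 (SD, n = 3) after overventilation, 1.56 ± 1.45 after LPS and 0 ± 0.98 in controls. Overventilation exceeded control 11.7-fold, with a 95% interval of the log2 difference from 1.57 to 5.53 and a limma adjusted p of 0.193. LPS exceeded control 2.95-fold, with an interval from -0.42 to 3.54 and an adjusted p of 1. The difference between overventilation and LPS was 1.99, or 3.97-fold (interval 0.01 to 3.97, adjusted p = 0.523). None of the differences passed the test over all probes. In the exact two-sided permutation test the p was 0.1, 0.2 and 0.3 for the 3 comparisons in this order, and 0.1 is the smallest that 3 against 3 samples allow.

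Overventilation array 3, at a ratio of 37.5 to the control mean, set much of this size. This holds for the deposited ratios. Above each array's own floor the Cxcl10 signals of overventilation arrays 1 to 3 lay by at least 3.07, 3.96 and 4.71. Array 3 was still the highest of these, but stood less far apart. Its floor was the highest of all arrays, at 1.15 on the log2 scale. Without overventilation array 3 the overventilated lungs exceeded the controls 6.55-fold and the LPS lungs 2.22-fold. Without control array 2, the highest control, the overventilation change was 17.0-fold and the LPS change 4.29-fold. The LPS change was 1.75-fold without LPS array 2 and 4.77-fold without LPS array 1, while the difference between the treated groups was 2.46-fold without LPS array 1 and 6.68-fold without LPS array 2. It was 5.89-fold without overventilation array 1. In every one of these fits, and in the other 10 settings tried, Cxcl10 was higher than control in both treated groups and higher in overventilation than in LPS.

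**Figure D1:**
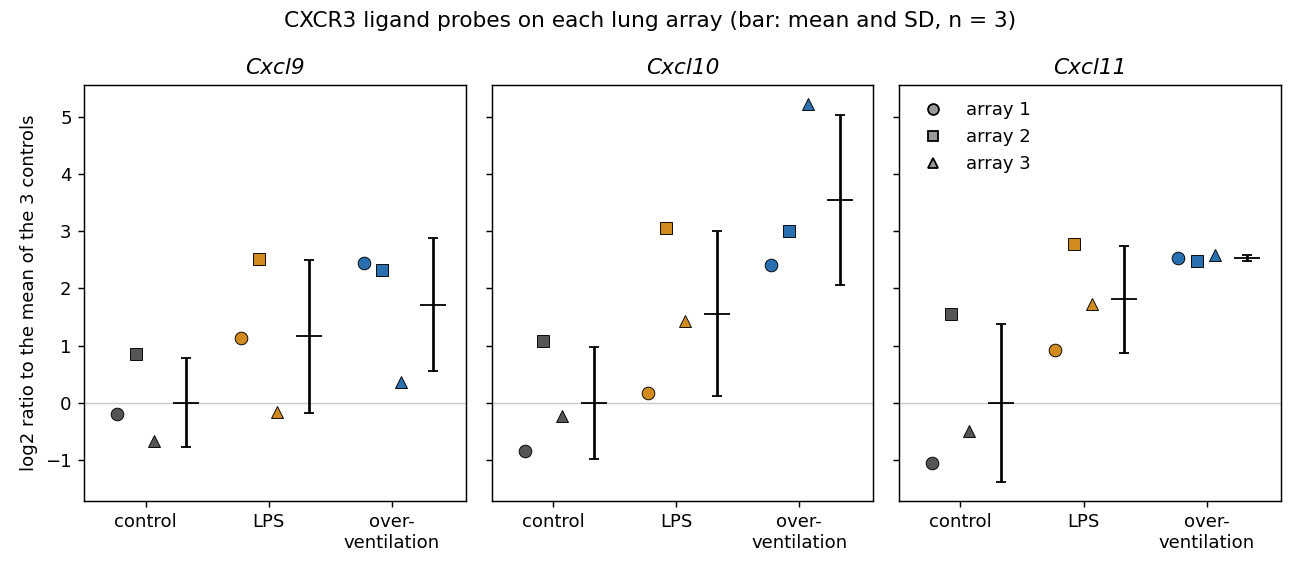
Log2 ratio to the control mean (vertical axis) of the Cxcl9, Cxcl10 and Cxcl11 probes on each of the 9 arrays, by group, with the marker shape giving the array number and the bar the mean and SD of 3 arrays. The Cxcl10 and Cxcl11 values of all overventilated lungs lie above all controls, and Cxcl9 on overventilation array 3 (0.37) lies below control array 2 (0.86).

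Cxcl11 was the most even of the 3 ligands among overventilated lungs, with 2.53, 2.48 and 2.58 on arrays 1 to 3. This holds for the deposited ratios. Above each array's own floor the signals lay by at least 3.46, 3.7 and 2.33, which is less even. Controls stood at -1.06, 1.56 and -0.50 and LPS lungs at 0.92, 2.78 and 1.73. The overventilated lungs lay above all controls by at least 0.92 and inside the upper range of the LPS lungs. LPS array 1 lay below control array 2, and the other LPS arrays above every control.

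The mean of Cxcl11 was 2.53 ± 0.05 (SD, n = 3) after overventilation, 1.81 ± 0.93 after LPS and 0 ± 1.38 in controls. The spread was thus widest in the controls, where array 2 stood apart. Overventilation exceeded control 5.78-fold (interval of the log2 difference 1.04 to 4.03, limma adjusted p = 0.193, exact permutation p = 0.1). LPS exceeded control 3.50-fold (interval 0.32 to 3.30, adjusted p = 1, exact permutation p = 0.2). The difference between the treated groups was 0.72 (interval -0.77 to 2.22, adjusted p = 0.739, exact permutation p = 0.4), so neither equality nor a severalfold difference can be read from it. Without control array 2 the overventilation change was 9.95-fold and the LPS change 6.03-fold. Without overventilation array 3 the former was 5.68-fold.

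Cxcl9 had the smallest overventilation change of the 3 ligands. Controls stood at -0.19, 0.86 and -0.66, LPS lungs at 1.13, 2.52 and -0.16, and overventilated lungs at 2.45, 2.33 and 0.37. Both treated groups overlapped the controls, because array 3 of each stood below control array 2. On overventilation array 3 the Cxcl9 signal lay at least 0.28 above that array's floor, against at least 3.53 and 3.71 on arrays 1 and 2. The value of array 3 was thus not set by the floor, though it may lie close to it.

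The mean of Cxcl9 was 1.72 ± 1.17 (SD, n = 3) after overventilation, 1.16 ± 1.34 after LPS and 0 ± 0.78 in controls. Overventilation exceeded control 3.29-fold (interval 0.01 to 3.42, limma adjusted p = 0.329, exact permutation p = 0.2). LPS exceeded control 2.24-fold (interval -0.54 to 2.86, adjusted p = 1, exact permutation p = 0.2). The treated groups differed by 0.56 (interval -1.15 to 2.26, adjusted p = 0.831, exact permutation p = 0.7), and this sign turned to -0.11 without LPS array 3. Without overventilation array 3 the overventilated lungs exceeded the controls 5.24-fold, and their 2 remaining arrays lay above all controls. The LPS change was 1.40-fold without LPS array 2 and 3.54-fold without LPS array 3. Overventilation exceeded LPS 2.35-fold without LPS array 2 and 2.34-fold without overventilation array 3.

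Counted together, all overventilated lungs lay above all controls for 2 of the 3 ligands, against 9.19% of the tested probes. For LPS against control that held for 0 of 3 ligands and 2.24% of probes, and for overventilation against LPS for 0 of 3 and 5.73% of probes. At an adjusted p under 0.05 limma called 0 of 3 ligands and 0% of the 5710 probes in each of the 3 comparisons. Unadjusted p-values under 0.05 were found for 850, 118 and 543 probes in the same order. Among all tested probes ordered by change, overventilation against control placed Cxcl10 at rank 1, Cxcl11 at rank 20 and Cxcl9 at rank 107. LPS against control placed Cxcl11 at rank 13, Cxcl10 at 24 and Cxcl9 at 66. Both comparisons use the same controls, so a high or low control moves both. Against LPS, overventilation placed Cxcl10 at rank 45, Cxcl11 at 745 and Cxcl9 at 1109. The ligands were chosen with earlier results of these data known, so these counts and ranks describe them and are no test.

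The order of group means was the same for all 3 ligands, with control lowest, LPS next and overventilation highest, and in no ligand were the LPS lungs as a group clear of either neighbour. Same-numbered LPS and control arrays deviated together over all probes, so the LPS values were also set against the control of the same number, a comparison added after the values were seen. The differences for numbers 1 to 3 were 1.32, 1.66 and 0.50 for Cxcl9, 1.03, 1.99 and 1.67 for Cxcl10, and 1.98, 1.22 and 2.23 for Cxcl11. All 3 differences were above 0 for each of the 3 ligands, against 12.6% of all probes. The exact two-sided sign-flip permutation p was 0.25 for each, the smallest that 3 pairs allow, and with the number as a block in limma the adjusted p was 0.826 for each. A test over the 3 groups together asked whether any group differed. Its limma adjusted p was 0.424 for Cxcl10, 0.432 for Cxcl11 and 0.615 for Cxcl9. The exact permutation test of the F statistic over all 1680 assignments of the arrays gave p = 0.0643 for Cxcl10, 0.05 for Cxcl11 and 0.261 for Cxcl9, where 0.00357 is the smallest possible.

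**Figure D2:**
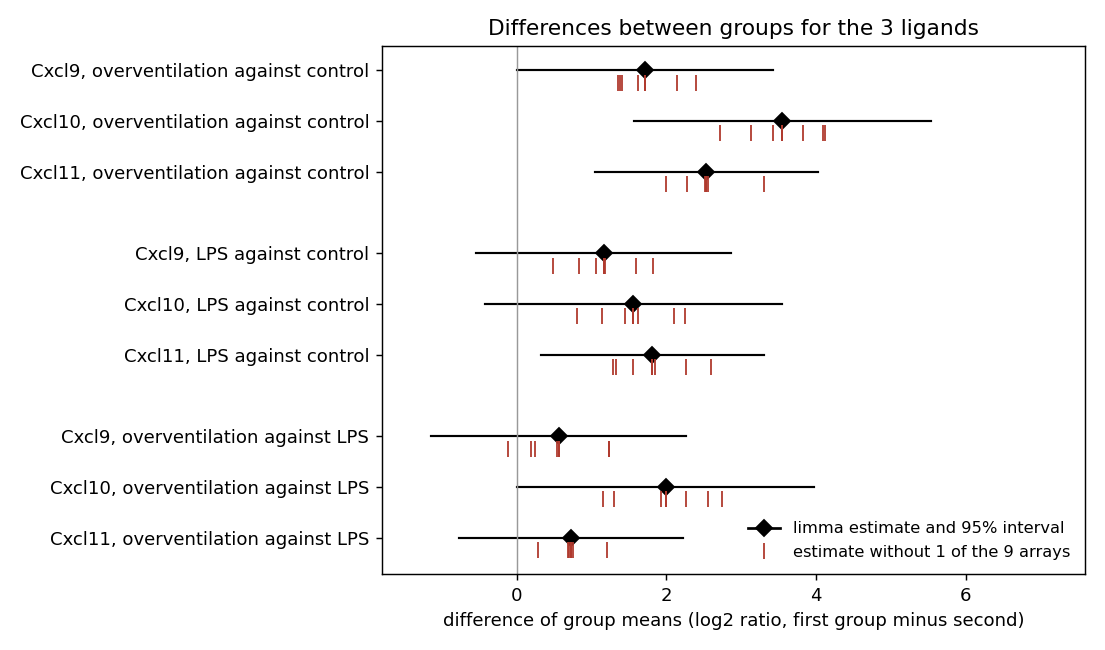
Differences of group means on the log2 scale (horizontal axis) for each ligand and comparison, with the limma estimate as a diamond and its 95% interval as a line. The short red strokes are the estimates when 1 of the 9 arrays is left out, and they cross 0 for Cxcl9 in overventilation against LPS (-0.11) and nowhere else.

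The 3 ligands varied together on most arrays, and the widest gap between Cxcl9 and each of the others was on overventilation array 3. Control array 2 and LPS array 2 held the highest value of their group for all 3 ligands. Over the 9 arrays, which share group differences and array effects, Pearson's r was 0.87 for Cxcl10 and Cxcl11, 0.73 for Cxcl9 and Cxcl11 and 0.48 for Cxcl9 and Cxcl10. After the group means were removed these were 0.72, 0.50 and 0.01. Without overventilation array 3 the first set was 0.96, 0.83 and 0.84, so the low value for Cxcl9 and Cxcl10 rests on that array.

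The log2 ratio of Cxcl9 stood below that of Cxcl10 by 4.86 on overventilation array 3 and by 0.68 on array 2, and was 0.03 above it on array 1. Cxcl10 stood 2.65 above Cxcl11 on overventilation array 3, 0.53 above it on array 2 and 0.12 below it on array 1. Whether the changes of 2 ligands were unequal was tested on their difference in each array, for 3 pairs in 3 comparisons. The exact permutation p of these 9 tests ran from 0.2 to 0.7. The largest difference, 1.83 between the Cxcl10 and Cxcl9 changes in overventilation against control, had an exact permutation p of 0.4, so unequal changes of the ligands were not shown.

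**Figure D3:**
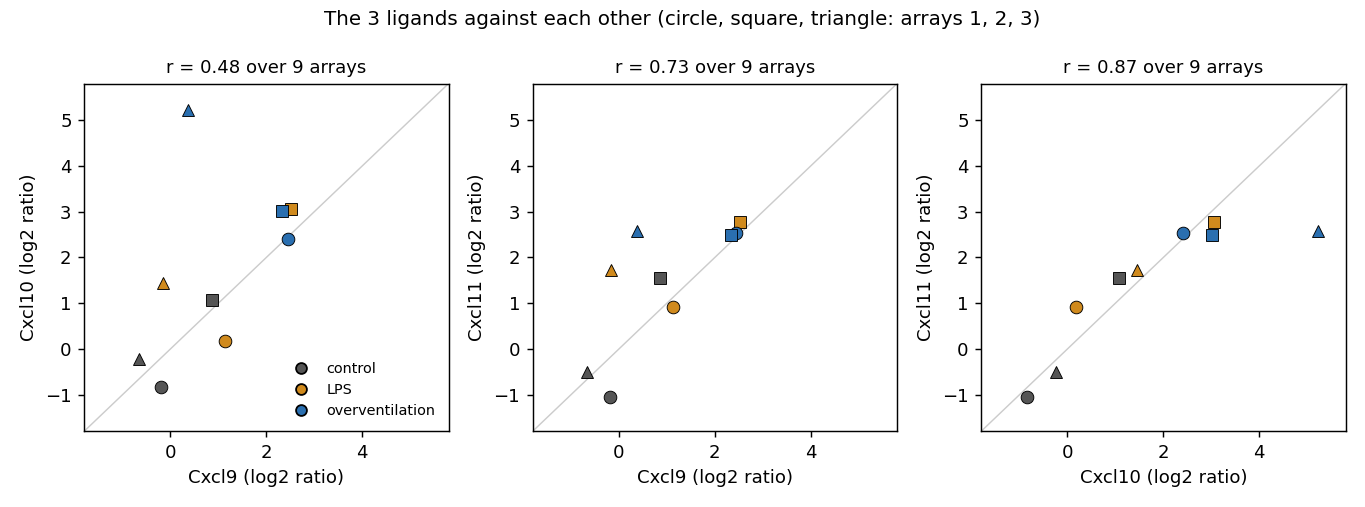
Log2 ratios of the 3 ligands plotted against each other, a point for each array, coloured by group and shaped by array number, with the line of equal ratios in grey. Overventilation array 3 (blue triangle) lies off the line in each panel, with Cxcl10 at 5.23, Cxcl11 at 2.58 and Cxcl9 at 0.37.

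The probes most like each ligand over the 9 arrays were found by Pearson's r among the tested probes with a gene symbol. The arrays share their group differences and array effects, so a high r is a description. For Cxcl10 they were Gclc, which encodes a subunit of the rate-limiting enzyme of glutathione synthesis (r = 0.987), the p38 pathway kinase gene Map2k3 (0.986), the podosome adaptor gene Sh3pxd2a (0.985), the peptidase gene Dpp8 (0.978) and the cytoskeletal septin gene Septin11 (0.975). At the 99th percentile of all probes r with Cxcl10 was 0.93. Map2k3 stood at 1.47, 2.36 and 4.25 on the overventilation arrays, with array 3 highest as for Cxcl10.

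Cxcl11 was most like the interferon-induced GTPase gene Irgm1 (r = 0.962), followed by Wdr45b (0.956), Gm8989 (0.948), the ion channel gene Mcoln2 (0.947) and the apoptosis inhibitor gene Birc3, an NF-kB target (0.942). Irgm1 stood at -0.84, 1.08 and -0.24 in controls, 0.51, 2.58 and 1.42 after LPS and 1.76, 2.45 and 2.97 after overventilation, with array 2 highest in controls and after LPS, as for Cxcl11. Cxcl9 was most like C5ar1, the receptor gene of complement fragment C5a (r = 0.968), followed by the kinase gene Tec (0.928), the phosphatase gene Ppp2ca (0.898), the transcriptional repressor gene Prdm1 (0.890) and the neutrophil chemokine gene Cxcl5 (0.886). The changes of C5ar1 were smaller, with 0.49 for overventilation and 0.33 for LPS. The 99th percentile of r was 0.87 for Cxcl11 and 0.77 for Cxcl9.

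The receptor gene Cxcr3 lay close to the floor. Its deposited log2 ratios were 0.72, -0.57 and -0.15 in controls, 1.01, -0.71 and -0.41 after LPS and 0.01, -0.28 and 0.47 after overventilation, with LPS array 2 and overventilation array 3 at their floors. It did not pass the filter and was not tested. Control array 1 and LPS array 1, the highest, lay 1.90 and 1.76 above their floors. The arrays at the floor for Cxcr3 were those with the highest Cxcl9 value (LPS array 2) and the highest Cxcl10 value (overventilation array 3).

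Among other genes of the CXCR3 axis, 6 of 8 listed genes were tested and 0 passed at an adjusted p under 0.05. Pf4, a platelet chemokine, had an overventilation change of 1.41 with a standard error of 0.48 (limma adjusted p = 0.228), and Ccl5, a chemokine that draws T cells, one of -1.32 with a standard error of 0.52 (adjusted p = 0.275). The samples did not overlap in either, so 1 of 6 lay above all controls (9.19% of all probes) and 1 of 6 below them. The median overventilation change of the 6 was -0.17. After LPS the changes of Pf4 and Ccl5 were 0.07 and 0.37. Dpp4, whose product trims the ligands' amino ends, differed by -0.36 after overventilation and 0.27 after LPS. The decoy receptor gene Ackr3 differed by -0.29 and -0.16, and Ackr1, another scavenger of chemokines, by -0.06 and -0.43.

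Interferon gamma itself was not measurable, since the Ifng probe was at the floor on all 9 arrays, as were Ifnar2 and Irf3. Ifnb1 was not analysed here. Of 28 genes of interferons, their receptors and their signalling, 17 had a probe and 10 were tested, none of which passed. After overventilation the changes were 1.81 for Stat2 (standard error 0.56, limma adjusted p = 0.214), 0.91 for Irf1, an interferon-induced transcription factor (adjusted p = 0.348), 0.80 for Irf9, the DNA-binding subunit of the factor that type I interferons activate (0.395), 0.81 for Irf7 (0.700) and -0.79 for the interleukin 12 subunit gene Il12a (0.401). All overventilated lungs lay above all controls for 4 of the 10 (Stat2, Irf1, Irf7 and Irf9), against 9.19% of all probes. After LPS the changes were 1.26 for Socs1, a feedback inhibitor of JAK kinases, 0.89 for Irf9, 0.86 for Stat2, 0.34 for Irf1 and -0.21 for Irf7, each with an adjusted p of 1. The samples overlapped for all of these.

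Interferon-induced genes outside the chemokines had positive median changes in both comparisons with control, although none passed at an adjusted p under 0.05. Of 54 listed genes 31 were tested, and 4 were at the floor on all arrays. The median change was 0.85 after overventilation and 0.59 after LPS, against -0.01 and -0.05 over all tested probes. In overventilation against LPS the median was 0.08, against 0.07 over all tested probes. There 16 of 31 genes were higher and 15 lower, where 55.0% of all probes were higher. An unadjusted p under 0.05 was found after overventilation for 11 of 31 on the higher side (6.20% of all probes) and 3 of 31 on the lower side (8.69%). After LPS it was found for 7 of 31 higher (0.998%) and 0 of 31 lower (1.07%). The ligands' own changes of 1.72 to 3.55 after overventilation and 1.16 to 1.81 after LPS lay above these medians.

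Mx2, an antiviral GTPase gene, had an overventilation change of 3.08 with a standard error of 0.60 and an LPS change of 2.05 with a standard error of 0.60. The immunity-related GTPase genes Irgm1 and Irgm2 differed from control by 2.39 and 2.22 after overventilation, and Irgm2 by 1.71 after LPS. Ifit1, which encodes a binder of foreign RNA, differed by 2.21 and 2.36, Mx1 by 1.54 and 2.03 and the exonuclease gene Isg20 by 1.00 and 1.35. The limma adjusted p was 0.193 for Mx2, Irgm1 and Irgm2, 0.201 for Ifit1, 0.284 for Mx1 and 0.257 for Isg20 after overventilation, and 1 for each after LPS. The 3 genes on the lower side, named after their values were seen, were the immunoproteasome genes Psmb9 (-1.60) and Psmb10 (-1.35) and the nuclear body gene Sp100 (-0.98). On overventilation arrays 1 to 3 Psmb9 stood at -2.51, -0.35 and -1.95, Psmb10 at -0.92, -0.75 and -2.38, and Sp100 at -0.70, -0.38 and -1.86. Psmb9 overlapped the controls, since control array 3 stood at -0.61.

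**Figure D4:**
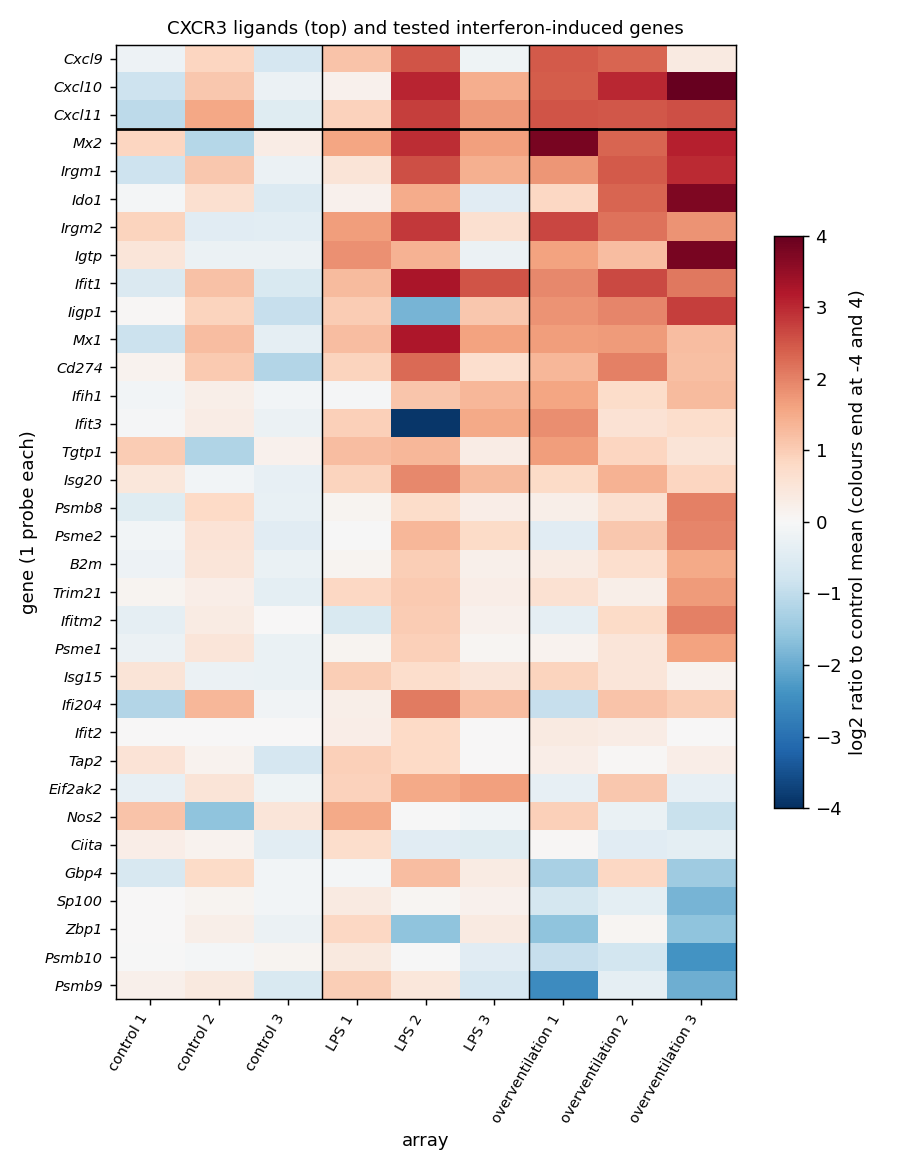
Log2 ratio to the control mean (colour, ending at -4 and 4) of the 3 ligands, above the black line, and of the 31 tested interferon-induced genes, ordered by their overventilation change, on the 9 arrays in columns. The ligands, Mx2, Irgm1 and Ifit1 are mostly red in LPS and overventilated lungs. Psmb9 and Psmb10 are blue after overventilation, palest on array 2 (-0.35 and -0.75). Cxcl10 on overventilation array 3 (5.23) lies beyond the colour range.

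The response element found in the Cxcl10 promoter was also searched in this list. RefSeq promoters were held for 21 of the 31 tested genes, in 26 windows, and 9 windows (34.6%) held a match, against 2.98% of all windows. They belonged to B2m, Ifit1, Ifit3, Ifitm2, Igtp, Irgm1, Irgm2, Isg15 and Tgtp1. The members of the list were chosen as known interferon targets, so a match describes them and is no test.

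Endotoxin acts through Toll-like receptor 4 and NF-kB, which also drives Cxcl10. Of 28 listed genes of this pathway 15 were tested and 0 passed at an adjusted p under 0.05. The probes of Tnf and Lbp were at the floor on all arrays. That of Tlr4 was at the floor on 8 arrays and was not tested. The median change was 0.38 after overventilation and 0.57 after LPS. After overventilation 6 of 15 had an unadjusted p under 0.05 on the higher side (6.20% of all probes) and 0 on the lower (8.69%). After LPS it was 0 of 15 in either direction, where the shares over all probes were 0.998% and 1.07%. The leukocyte adhesion gene Vcam1 differed by 2.42 after overventilation (standard error 0.57, limma adjusted p = 0.193) and 0.92 after LPS. Tnip1, an NF-kB inhibitor, differed by 1.68 and 0.63, the NF-kB subunit gene Nfkb2 by 1.59 and 0.57 and Birc3 by 1.66 and 1.04. The adaptor gene Myd88 differed by 2.56 and 1.72, with overlap of the samples in both.

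Other chemokine genes varied in direction. Of 9 tested CXC and XC chemokine genes, 3 had an unadjusted p under 0.05 on the higher side after overventilation (Cxcl1 1.42, Cxcl5 1.59, Pf4 1.41) and 2 on the lower side (Cxcl14 -2.99, Ppbp -1.13), against 6.20% and 8.69% of all probes. Cxcl1 and Cxcl5 attract neutrophils, and Ppbp comes from platelets, as Pf4 does. After LPS there was 1 in each direction, Cxcl5 at 1.23 and Ppbp at -1.44, against 0.998% and 1.07% of all probes. Of 17 tested CC and CX3C chemokine genes, 2 were on the higher side after overventilation at that level, Ccl2 with 2.87 and Ccl3 with 2.75, and 1 on the lower side, Ccl5, shares near the 6.20% and 8.69% of all probes. After LPS these were Ccl2 with 1.74 and Ccl3 with 1.38 (0.998% of all probes), and 0 lower (1.07%). No chemokine of these lists passed at an adjusted p under 0.05. The medians of the CXC and XC list were 1.16 and -0.26, and those of the CC and CX3C list -0.12 and 0.37.

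Several markers of the cells that carry CXCR3 were at the floor. Of 11 T cell markers with a probe, 6 were tested, and Cd3e and Cd8a were at the floor on all arrays. The median of the 6 ran from -0.47 to 0.55 in controls, -0.17 to 0.79 after LPS and -0.37 to 0.12 after overventilation. Of 7 natural killer and cytotoxic cell markers with a probe 2 were tested, and Prf1 and Nkg7 were at the floor on all arrays. The 4 tested monocyte and macrophage markers had medians of -0.28 to 0.28, -0.58 to 1.37 and 0.13 to 0.44 in the same order of groups, and the macrophage surface marker Adgre1 was at the floor throughout. Lyz2 of this list, a lysozyme gene of macrophages and alveolar type II cells named after its values were seen, stood at 0.83, 0.03 and -0.86 in controls, 2.25, 1.39 and -0.53 after LPS and 1.73, 1.19 and 4.77 after overventilation. Its overventilation change was 2.56 with a standard error of 0.97 (limma adjusted p = 0.265), and it was highest on the same array as Cxcl10. All overventilated lungs lay above all controls for this 1 of the 4 markers, against 9.19% of all probes. The median change of the 4 after overventilation was 0.11, with 2 on the higher and 2 on the lower side. The 3 tested adipose markers had medians of 0.75, 0.93 and -1.70 in controls, -2.12, -5.28 and -1.93 after LPS and -0.36, -2.21 and -1.19 after overventilation. Their median change was -2.98 after LPS, where 3 of 3 had an unadjusted p under 0.05 on the lower side (1.07% of all probes), and -1.46 after overventilation, where 1 of 3 did (8.69%). The part of these markers in the ligand values was not tested.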

How the data were processed

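The table used holds ratios on a linear scale for 9 arrays, as deposited. In it the log2 values of the 3 controls average 0 at every probe (largest deviation 2.5e-09), so each probe had been divided by its control geometric mean. The sources used here do not give the array maker, scanner or normalization. The floor pattern over the arrays was taken from the 1908 probes at it on all 9 arrays (tolerance 1e-06, log2). Where 2 or more arrays shared the floor, lower values were set to the highest array floor. A probe was tested if above that on 3 or more arrays, or if its floor was unknown (5322 probes). Gene names come from the platform annotation (8983 probes with 1 symbol). This assignment was not checked against scanner files here. For a listed gene with several probes, the probe clear of the floor on the largest number of arrays was used, and in a tie the lowest probe number.

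R 4.3.3 and limma 3.58.1 gave the comparisons (all 9 arrays in lmFit, contrasts, eBayes, two-sided), with Benjamini-Hochberg adjustment over 5710 probes at 0.05. The fit was tested on simulated data. Exact permutation tests of single probes are two-sided, except that of F. The genes named are the ligands, their 5 most correlated probes, and at most 4 genes of a list and comparison with the smallest p, with Cxcr3, Ifng, Irf1 and Irf7. The ligands and lists were chosen with earlier results of these data known. Same-numbered arrays of LPS and control deviated together from their group means (r = 0.497, 0.247 and 0.199), which by the rule used pairs them, from the data alone and from no label. For overventilation and control r was 0.508, 0.133 and 0.033. Alternatives changed the floor, filter, scaling, weights, block and arrays used.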

Additional observations from a re-analysis of the deposited data

How the results depend on the processing

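Each ligand change was recomputed in 19 other settings, and no adjusted p fell under 0.05. The lowest was 0.0765, for Cxcl10 in overventilation against control without overventilation replicate 2. Over the settings this p ran to 0.593 for Cxcl10, from 0.122 to 0.774 for Cxcl9 and from 0.121 to 0.705 for Cxcl11. Every change kept its sign except that of Cxcl9 in overventilation against LPS, which was -0.11 without LPS replicate 3 and ran from there to 1.23 over the arrays left out. With the lowest array of every probe taken as its floor, a setting chosen after seeing the data, the overventilation changes of Cxcl9, Cxcl10 and Cxcl11 were 1.37, 2.84 and 1.84 and the LPS changes 0.90, 0.97 and 1.12, and 6 probes were called for overventilation against control. With quantile normalization the difference of overventilation and LPS was 1.10 for Cxcl10 and 0.22 for Cxcl11. With the replicate block the estimates stayed as they were, 3.55 for Cxcl10 in overventilation against control, with an adjusted p of 0.122 for each ligand there and 0.826 in LPS against control, so the block changed no call. Leaving out 1 array, limma called 0 to 290 probes for overventilation against control, 0 to 226 for overventilation against LPS (the highest in both without overventilation replicate 2) and 0 to 1 for LPS against control. The cause of these shifts was not tested. The number of arrays limits the precision, and the signal over background of the ligand probes is unknown.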
